A study of Mus musculus with 12 samples.

Results

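Glucose metabolism and insulin signalling genes are described here from ChIP-seq peak lists of LSD1 and of the histone mark H3K4me2 in mouse liver. The set holds 36 genes, listed by name, of the 21938 protein-coding genes that GENCODE release M21 places on chromosomes 1 to 19, X and Y. It comprises 6 genes of gluconeogenesis, 12 of glycolysis and sugar entry, 5 of glycogen metabolism, 4 of the pyruvate dehydrogenase step, 4 aminotransferases and 5 of insulin signalling. LSD1 was measured in the liver of wild-type C57BL/6 mice. H3K4me2 was measured in the liver of LSD1 fl/fl mice given AAV8-TBG-GFP (control) or AAV8-TBG-Cre (LSD1-LKO). Both H3K4me2 groups therefore carried the floxed alleles and an AAV8 vector, and the TBG promoter limits Cre to hepatocytes of the adult mouse. Each of the 3 lists came from 2 ChIP libraries with 2 control libraries, and the labels of these libraries name no age or diet of the mice.

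LSD1 is a histone demethylase that removes methyl groups from lysine 4 of histone H3 and, in some settings, from lysine 9. H3K4me2, one of its substrates, marks active and poised promoters and enhancers, usually on nucleosomes that flank a transcription start site (TSS) rather than at the start itself. In the fasted liver, gluconeogenesis and glycogen breakdown release glucose through glucose-6-phosphatase. In the fed liver, insulin acts through its receptor, the IRS adaptors and AKT2 to favour glycogen storage and glycolysis and to restrain the transcription factor FOXO1, which otherwise activates gluconeogenic genes.

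A listed peak was an interval called in both libraries of a group, and the intervals of the first-listed library served as positions, with those of the second-listed library given beside them. A promoter was the sequence within 1 kb of an annotated TSS, all TSSs of a gene counted, and a locus was the gene body with 10 kb before and after it. The LSD1 list held 14584 peaks, the control H3K4me2 list 43891 and the LSD1-LKO list 50675. In both H3K4me2 lists the second-listed library had wider peaks, with median widths of 1161 bp (control) and 1240 bp (LSD1-LKO) where the first-listed ones had 648 bp and 565 bp. The library names differ by a processing tag whose meaning is not given in the sources used here, so the libraries may not have been processed alike, and whether this bears on peak width was not tested. Differences of covered length were therefore taken within first-listed or within second-listed libraries, and statements on whether genotypes overlapped compare all 4 libraries. The peak lists hold no reads, and depth is unknown. With 2 libraries against 2, an exact two-sided permutation test cannot give a p below 0.333, so differences between genotypes are described by their values and by whether the libraries overlapped. All 10 hepatocyte marker genes had a control H3K4me2 promoter peak and 9 an LSD1-LKO one, with Tdo2 missing from the latter. Of the markers of other liver cells, 0 of 3 for Kupffer cells had a peak in either list, 1 of 3 and 2 of 3 did for endothelial cells, the same numbers did for stellate cells, and 2 of 3 did in both lists for cholangiocytes. Of 4 genes of other tissues, Pax6 alone had a peak, in both lists. The median percentile of the strongest promoter peak within a library, over the hepatocyte markers with a peak, was 73.3 in control and 55.3 in LSD1-LKO. For stellate markers it was 85.7 from 1 gene and 53.7 from 2, and for endothelial ones 46.07 from 1 and 37.8 from 2. For the 2 cholangiocyte markers it was 86.15 and 84.4, and Pax6 stood at 38.87 and 44.83. The median promoter length under first-listed peaks was 1159 bp and 1095 bp for hepatocyte markers, 0 bp and 292 bp for endothelial, and 0 bp and 277 bp for stellate ones. The part of other cells in the results was not tested, and in whole liver a weaker mark and a mark in fewer cells cannot be told apart. The deletion of LSD1 cannot be read from these lists.

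LSD1 peaks lay at the promoters of 16 of the 36 genes (44.4%), beside 24.6% of all protein-coding genes. Many protein-coding genes had no H3K4me2 promoter peak in either list. Among the 13777 genes with H3K4me2 promoter coverage in either genotype the share with an LSD1 promoter peak was 38.6%. The glucose genes also had a median of 5 TSSs, as did the genes with H3K4me2, against 3 for all genes. Counting the whole locus, 27 of 36 genes (75%) had an LSD1 peak, beside 43.7% of all protein-coding genes. The median gene length was 23330 bp in the set, 17420 bp in all genes and 24250 bp in those with H3K4me2 promoter coverage. Whether length bears on the locus share was not tested. The promoter peaks belonged to G6pc, Slc37a4, Fbp1 and Pcx of gluconeogenesis, Gckr, Pfkl, Gpi1 and Eno1 of glycolysis, Gys2 and Ugp2 of glycogen metabolism, Pdhb and Pdk4 of the pyruvate dehydrogenase step, the aminotransferases Gpt and Got2, and the insulin receptor substrates Irs1 and Irs2. A further 11 genes had LSD1 peaks only away from their promoters: Pck1, Slc2a2, Khk, Pgam1, Ldha, Pygl, Dlat, Gpt2, Insr, Foxo1 and Akt2. No LSD1 peak was listed in the loci of the other 9, namely Pck2, Pfkfb1, Tpi1, Gapdh, Pklr, Ppp1r3b, Ppp1r3c, Pdk2 and Got1.

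The LSD1 peaks were modest in size. The loci held 49 LSD1 peaks, and their median fold enrichment over the control library, a ratio given by the peak caller MACS, was 2.85 in the first-listed and 3.07 in the second-listed library. Across all LSD1 peaks the medians were 2.90 and 3.02. Only 4 of the 49 peaks (8.16%) reached a MACS q-value at or below 0.05 in both libraries, beside 14.4% of all LSD1 peaks, and 1 of these 4 lay at a promoter, that of Irs1. The 18 promoter peaks had a median percentile of 63.9 within the LSD1 list, ranked by the mean -log10 p of both libraries, and the 5447 promoter peaks of all genes one of 69.4.

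**Figure D1:**
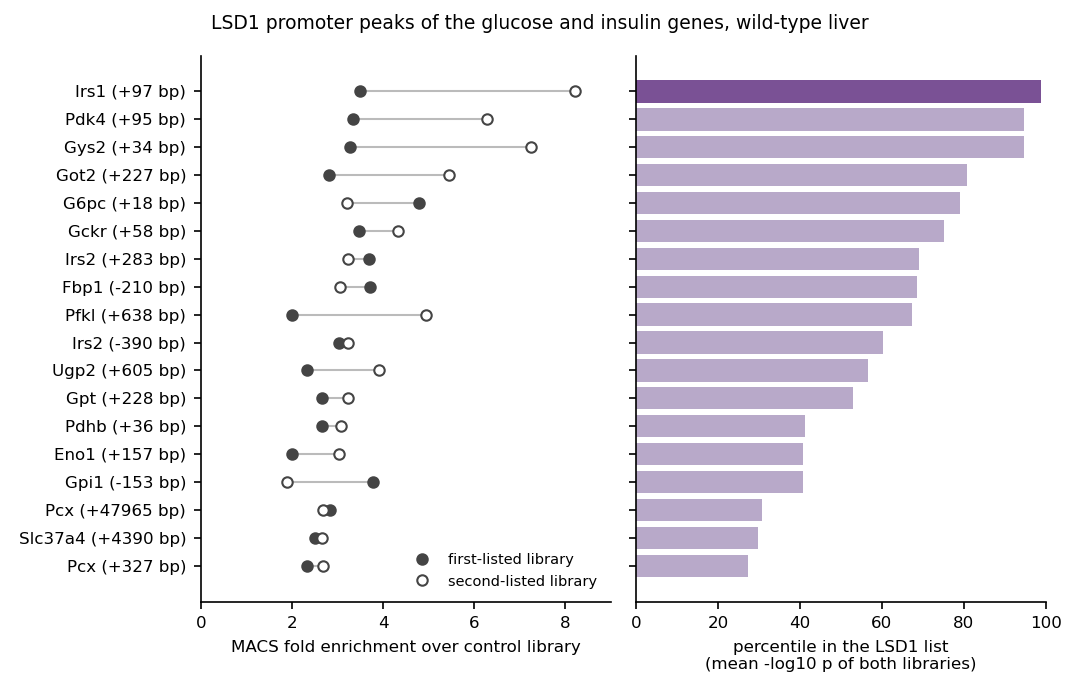
The 18 LSD1 promoter peaks, named by gene and by the distance of the peak centre from the 5′ end of the gene. The left panel gives the MACS fold enrichment in each of the 2 wild-type libraries and the right panel the percentile of the peak in the LSD1 list, with the darker bar for the peak whose q-value is at or below 0.05 in both libraries. Irs1 (98.7), Pdk4 (94.7) and Gys2 (94.6) have the highest percentiles, and in these 3 the second-listed library shows the higher fold enrichment.

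Irs1, the adaptor that carries the signal of the insulin receptor to PI3 kinase, had the highest-ranking LSD1 promoter peak of the set, at percentile 98.7. Its fold enrichment was 3.51 in the first-listed and 8.21 in the second-listed library, and the peak ran from -367 to 561 bp around the TSS (chr1:82290855-82291783, centred in a UTR exon). Pdk4, the kinase that switches off pyruvate dehydrogenase in the fasted liver, ranked next at percentile 94.7, with 3.34-fold and 6.28-fold enrichment (chr6:5495936-5496492). Gys2, the liver glycogen synthase, stood at percentile 94.6 with 3.29-fold and 7.26-fold enrichment. In all 3 genes the second-listed library gave the higher value. Got2, the mitochondrial aspartate aminotransferase of the malate-aspartate shuttle, followed at percentile 80.75 (2.82-fold and 5.45-fold), and G6pc, the catalytic subunit of glucose-6-phosphatase, at 79.1 (4.79-fold and 3.21-fold, chr11:101367071-101368087). G6pc was the exception among these 5 in having the higher value in the first-listed library.

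The sequence under the peaks differed widely in CpG content between these genes. To show it, the stretch of the LSD1 promoter peak that lies outside annotated exons is given below for Irs1, Pdk4 and G6pc in the direction of transcription, at most 300 bases, from the GRCm38 genome and with every CpG in capitals. The Got2 peak lay within exons in full and is not shown.
Irs1: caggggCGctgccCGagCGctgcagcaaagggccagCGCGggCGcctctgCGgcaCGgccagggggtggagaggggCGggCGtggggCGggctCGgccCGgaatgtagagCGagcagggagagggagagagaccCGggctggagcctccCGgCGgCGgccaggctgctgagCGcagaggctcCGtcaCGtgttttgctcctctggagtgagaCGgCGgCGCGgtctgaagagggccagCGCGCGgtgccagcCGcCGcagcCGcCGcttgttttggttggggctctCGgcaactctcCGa
Pdk4: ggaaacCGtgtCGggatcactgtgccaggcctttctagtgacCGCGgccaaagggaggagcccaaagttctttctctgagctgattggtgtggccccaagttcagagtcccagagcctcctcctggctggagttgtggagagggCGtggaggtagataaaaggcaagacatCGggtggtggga
G6pc: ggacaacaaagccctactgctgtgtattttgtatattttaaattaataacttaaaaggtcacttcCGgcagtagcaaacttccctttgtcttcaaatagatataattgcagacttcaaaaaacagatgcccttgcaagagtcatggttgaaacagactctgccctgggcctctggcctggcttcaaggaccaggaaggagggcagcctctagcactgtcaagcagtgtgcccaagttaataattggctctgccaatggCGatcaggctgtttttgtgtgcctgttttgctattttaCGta
The Irs1 stretch (chr1:82291440-82291739, minus strand, -323 to -24 bp from the TSS) held 34 CpGs at 73.3% G+C. The Pdk4 stretch (chr6:5496310-5496492, minus strand) held 6 and the G6pc stretch (chr11:101367261-101367560, plus strand) 3. High-ranking LSD1 peaks thus lay on both CpG-rich and CpG-poor stretches. Over 500 bp before and after the 5′ end of the gene, the ratio of observed to expected CpGs had a median of 0.685 in the 16 genes that carried LSD1 at a promoter against 0.577 in the other 20, and the first group ran from 0.104 in Gpt to 1.05 in Irs2. Among all genes with H3K4me2 promoter coverage the medians were 0.762 with LSD1 at a promoter and 0.679 without.

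The motif letters searched were in few of the peaks, at most 6 of 49. CACGTG, CAAAGGTCA and TGACGTCA were in a larger share of them than of all LSD1 peaks. TGTTTAC, CCGGAAGT and TTGCGCAA were in a smaller one, and no test was run. The letters were CAAAGGTCA (nuclear receptors), TGTTTAC (forkhead factors), CACGTG (E-box), TGACGTCA (CREB), CCGGAAGT (ETS factors) and TTGCGCAA (C/EBP), read on both strands in 300 bp at the centres of the peaks. CACGTG was in 6 of the 49 windows, at Pcx, Slc2a2, Gys2, Akt2, Irs2 and Slc37a4, and in 5.57% of the windows of all LSD1 peaks. CAAAGGTCA was in 2 windows, upstream of Gpt and within Akt2, beside 1.3% of all, TGTTTAC and TGACGTCA were in 1 window each, both at Pcx, beside 4.67% and 0.72%, and CCGGAAGT and TTGCGCAA were in 0, beside 1.91% and 0.254%. Of the 300-base RefSeq promoters of all genes, 7.15% held CACGTG and 3.89% held CCGGAAGT. In the stretches printed above, CACGTG lay within the Irs1 sequence and CCGGAAGT, on the opposite strand, within the G6pc sequence, both outside the central windows. A match of letters is a description and not a binding site.

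LSD1 and H3K4me2 met at most of these sites. Of the 49 LSD1 peaks, 35 (71.4%) overlapped a control H3K4me2 peak, beside 52.5% of all LSD1 peaks. At promoters it was 17 of 18, against 89.1% of the promoter peaks of all genes. Elsewhere in the loci it was 18 of 31, against 30.7% of the LSD1 peaks outside the promoters of all genes. Of those 31 peaks, 7 lay within 1 kb of the TSS of another protein-coding gene, a kind of peak that the 30.7% leaves out. In LSD1-LKO the overlap was again 17 of 18 and 18 of 31, against 87.8% and 33.5%. By site, 30 LSD1 peaks overlapped H3K4me2 in both genotypes, 5 in control only, 5 in LSD1-LKO only and 9 in neither. These overlaps were read at first-listed positions. The 9 without H3K4me2 there were single peaks near Slc37a4, Pgam1, Gpt2, Got2, Insr and Akt2, 1 in Pcx and 2 upstream of Gpt, and of these the Gpt2, the Got2 and the nearer Gpt peak overlapped an H3K4me2 peak of a second-listed library.

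The gluconeogenic genes held the most LSD1 peaks, 16 in 5 of 6 loci. Pcx, whose product pyruvate carboxylase makes oxaloacetate from pyruvate, had 7 of them across its 111281 bp gene, 2 at promoters (the later one centred 47965 bp into the gene), and the highest-ranking one (percentile 90.5) lay downstream at the TSSs of Rce1 and Gm960. Slc37a4, the transporter that brings glucose-6-phosphate into the endoplasmic reticulum, had 3, as did G6pc, Gpi1, Eno1 and Gpt. At G6pc the strongest LSD1 peak was not the promoter peak but a broad one downstream of the gene, from 10867 to 12617 bp after the TSS (chr11:101378428-101380178, percentile 97.6, 4.23-fold and 7.91-fold, q at or below 0.05 in both libraries). It had no TSS of another protein-coding gene within 1 kb. Among first-listed positions it overlapped an H3K4me2 peak in LSD1-LKO, from 12344 to 12620 bp, and none in control, while the second-listed control library had a peak from 12418 to 13010 bp. At Eno1, the glycolytic enolase, 2 neighbouring peaks centred -9684 and -9020 bp from the TSS (percentiles 93.2 and 86.1) paired with 1 peak of the second-listed library and are 1 site in that library. Fbp1, fructose-1,6-bisphosphatase, had a single peak at its promoter (percentile 68.4, 3.71-fold and 3.05-fold).

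The remaining LSD1 promoter peaks ranked lower. Gckr, the regulatory protein of glucokinase, had a peak at percentile 75.2 (3.48-fold and 4.34-fold) and Pfkl, the liver phosphofructokinase, one at 67.4 (2.00-fold and 4.94-fold). Irs2 had a pair of promoter peaks in the first-listed library, from -73 to 639 bp over the TSS (percentile 68.9) and from -531 to -249 bp (60.3), which paired with 1 peak of the second-listed library and are 1 site in that library. Ugp2, which makes UDP-glucose for glycogen, stood at 56.5, and Gpt, cytosolic alanine aminotransferase, at 52.9. Pdhb, a subunit of pyruvate dehydrogenase, Eno1 and Gpi1, glucose-6-phosphate isomerase, stood between 40.7 and 41.3, and Slc37a4 and both promoter peaks of Pcx between 27.4 and 30.8. These last 6 peaks ranked below the middle of the LSD1 list.

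Pck1, the cytosolic phosphoenolpyruvate carboxykinase, had no promoter LSD1 peak at first-listed positions but a pair on either side of the promoter. The upstream one ran from -6507 to -5658 bp (chr2:173146541-173147390, percentile 72.0, 3.71-fold and 3.81-fold) and the other from 1381 to 1914 bp within an intron (percentile 38.3, 2.49-fold and 3.34-fold). In the second-listed library the latter peak ran from 1001 to 1680 bp and entered the promoter window of a later Pck1 TSS, so that at second-listed positions 17 genes of the set had an LSD1 promoter peak. Pklr, the liver pyruvate kinase, and Gapdh, the glycolytic dehydrogenase often used as a reference gene, had 0 LSD1 peaks in their loci. Of the insulin signalling genes without a promoter peak, Insr, the insulin receptor, had 2 intronic peaks, centred 57959 and 61762 bp after the 5′ end of the gene, Akt2 had 2 within the gene and Foxo1 had 1 at the low percentile of 3.10.

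H3K4me2 marked the promoter of nearly every one of these genes in both genotypes. A control H3K4me2 promoter peak was listed for 35 of 36 genes, beside 59.6% of all protein-coding genes, and an LSD1-LKO peak for 36 of 36, beside 59.8%. Around the 5′ end of the gene, LSD1 coverage of the set was highest 75 and 25 bp after the start, with 34.5% and 36.1% of bases covered in the 2 libraries. Just before the start, 58.3% and 69.2% of bases lay under H3K4me2 peaks in control, against 47.9% and 71.6% in LSD1-LKO. Downstream the highest coverage was 80.6% and 89.7% in control, against 82.9% and 94.4% in LSD1-LKO. Over all genes the downstream maximum lay nearer to the start, at 275 bp in control against 325 bp in LSD1-LKO.

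Pck1 was the one gene of the set with an H3K4me2 promoter peak in a single genotype. Its promoter held 0 bp of H3K4me2 peak in both control libraries, and 82 bp and 567 bp in the LSD1-LKO libraries. In LSD1-LKO a peak ran from -1413 to -994 bp in the first-listed and from -2305 to -434 bp in the second-listed library, where neither control library had one. Downstream of the TSS, H3K4me2 began at 2800 and 2269 bp in the control libraries and at 960 and 1825 bp in the LSD1-LKO libraries. The LSD1 peak at 1381 to 1914 bp lay in the stretch that the first-listed LSD1-LKO library covered and no control library did. The other LSD1 peak, upstream, overlapped an H3K4me2 peak in control and none in LSD1-LKO among the first-listed positions, while the second-listed LSD1-LKO library had a peak there, from -6473 to -4794 bp. With the promoter drawn as 500 bp on either side, the Pck1 coverage was 0 bp in the first-listed and 67 bp in the second-listed LSD1-LKO library, and with a q threshold of 0.05 on peaks it was 75 bp and 0 bp. Over all genes, 695 had a promoter peak only in LSD1-LKO and 665 only in control, so such genes were found in both directions.

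**Figure D2:**
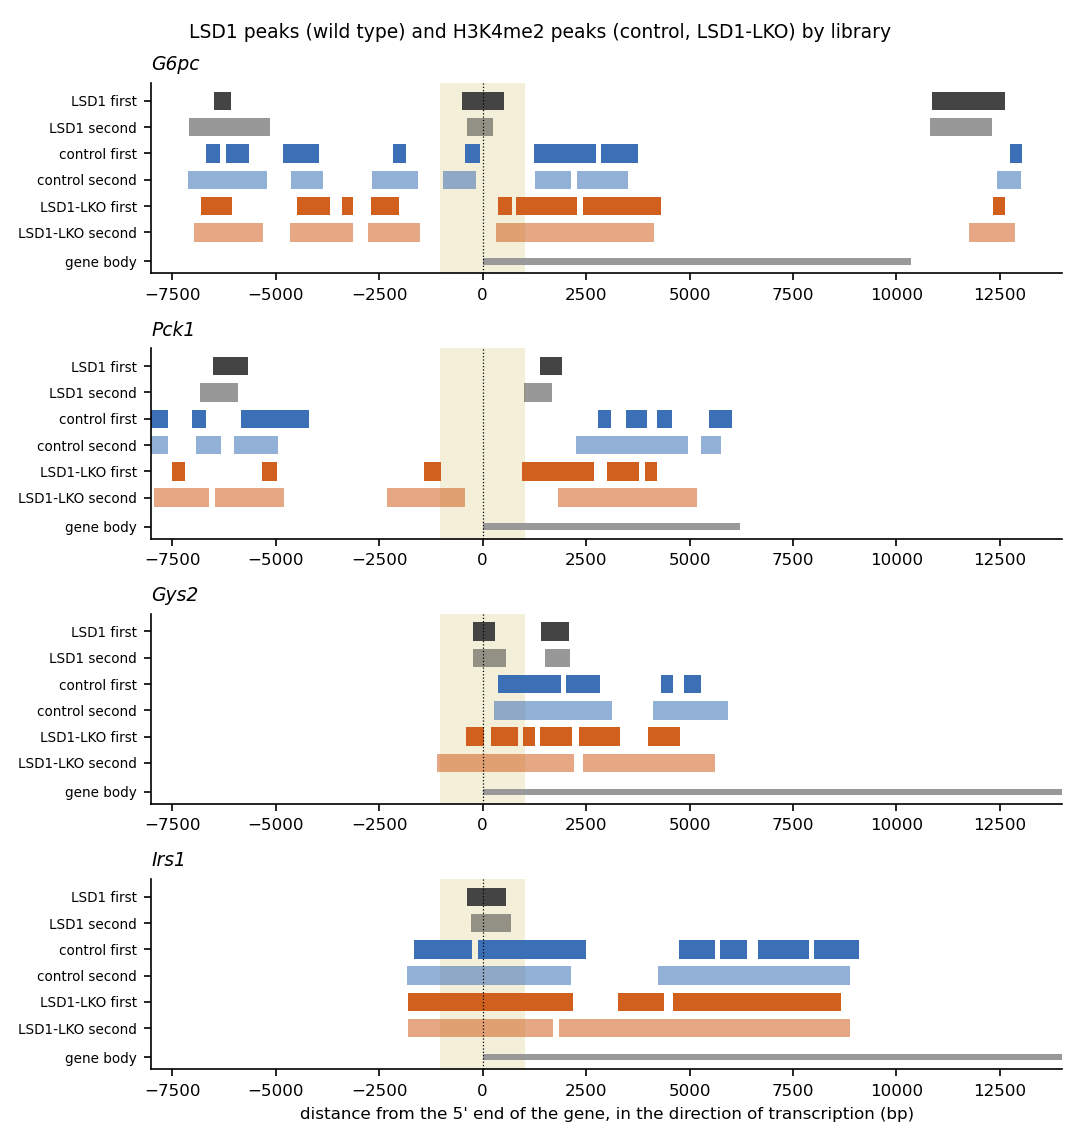
Listed LSD1 peaks (grey, wild type) and H3K4me2 peaks (blue, control; orange, LSD1-LKO) in each library at G6pc, Pck1, Gys2 and Irs1, by distance from the 5′ end of the gene in bp. The shaded band spans 1000 bp before and after the TSS, and the thin bar is the gene body. Within the band at G6pc, H3K4me2 lies upstream of the start in control and downstream of it in LSD1-LKO, while at Pck1 H3K4me2 reaches the band, and at Gys2 it covers the start, in LSD1-LKO alone.

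G6pc showed a different placement of H3K4me2 around the start in the 2 genotypes. In control a peak lay just upstream, from -430 to -52 bp in the first-listed and from -962 to -157 bp in the second-listed library and so within the G6pc sequence printed above in part. Neither LSD1-LKO library had a peak between -1522 bp and the start. Downstream, H3K4me2 began at 1254 and 1270 bp in control and at 373 and 326 bp in LSD1-LKO, and the second-listed LSD1-LKO library held 1 peak of that region up to 4137 bp. The strongest promoter peak of G6pc accordingly stood at percentiles 8.78 and 19.6 of the control libraries and 86.7 and 74.9 of the LSD1-LKO libraries. This was the largest difference of rank in the set, but it turned on the edge of the window: with 2 kb on either side, which takes in the control peak that starts at 1254 bp, the percentiles were 82.2 and 65.6 in control against 86.7 and 74.9, and the libraries overlapped. Limited to peaks that passed the q threshold of 0.05 in each library, the G6pc promoter held 0 bp in control, against 189 bp and 675 bp in LSD1-LKO. With 500 bp on either side its covered length went the other way. It was then 379 bp and 344 bp in control against 128 bp and 175 bp in LSD1-LKO.

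Gys2 and Irs1, with high-ranking LSD1 peaks over their starts, both had H3K4me2 over the start in both LSD1-LKO libraries. At Gys2 the control H3K4me2 began at 379 and 268 bp downstream, so that the LSD1 peak, which ended at 297 bp, met no control peak of the first-listed library. In LSD1-LKO peaks ran from -410 to 40 bp and on from 211 bp in the first-listed library and from -1105 to 2207 bp in the second-listed library. Promoter coverage of Gys2 was 622 bp and 733 bp in control against 1110 bp and 2001 bp in LSD1-LKO, and the libraries did not overlap. The rank of its strongest promoter peak overlapped between genotypes, with percentiles of 40.5 and 74.1 in control against 54.1 and 72.6 in LSD1-LKO. At Irs1 the first-listed control library had a gap from -264 to -118 bp over the LSD1 site that the first-listed LSD1-LKO library did not have, but the second-listed control library covered it as well. Irs2 was alike in this, with 1701 bp and 2001 bp of its promoter covered in control against 2001 bp in both LSD1-LKO libraries, the whole window.

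The length of promoter under H3K4me2 peaks differed in both directions across the set. In the first-listed libraries 22 of 36 genes had more covered length in LSD1-LKO, beside 39.9% of the genes covered in either list, and 14 had less, beside 59.8%. The median difference was 110.5 bp for the set and -114 bp for all genes. In the second-listed libraries the median of the set was 0 bp, with 17 genes higher and 16 lower, beside 25 bp for all genes, so that the set stood above all genes in the first pair and below them in the second. Only 4 genes had both LSD1-LKO libraries above both control libraries (11.1%, beside 15% of all genes covered in any library), namely Pck1, Gys2, Pgam1 and Akt2. Another 2 had both below (5.56%, beside 17.2%), namely Khk and Ldha. These names depended on the settings. With 2 kb on either side, Khk, Ldha, Pgam1 and Akt2 overlapped, and the 2 genes with both libraries below were Pfkfb1 and Foxo1. The 5 with both libraries above were then Pck1, Gys2, Irs2, Pdhb and Pklr. With 500 bp Pck1 and Akt2 overlapped, with a p threshold of 0.01 Akt2 did, and with a q threshold of 0.05 Pck1, Gys2 and Akt2 did. The sign of the median turned with a narrower promoter, a single TSS per gene, a stricter MACS threshold and the pair of libraries, so no direction is read from it.

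**Figure D3:**
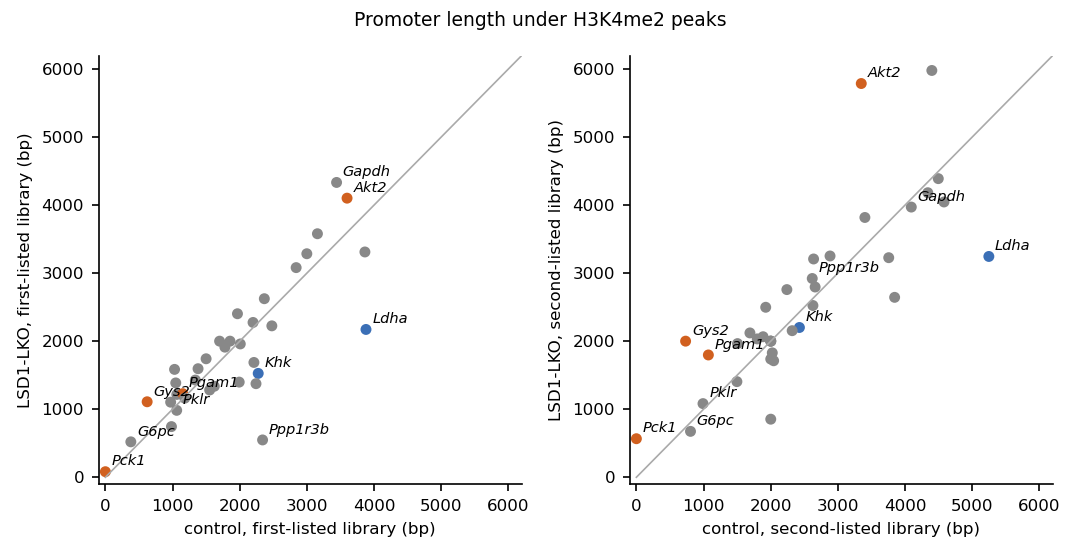
Promoter length under H3K4me2 peaks in LSD1-LKO against control, in bp, for the first-listed and the second-listed libraries, 1 point a gene, with the line of equal length. Orange points are the 4 genes whose LSD1-LKO libraries both lie above both control libraries, blue points the 2 whose LSD1-LKO libraries both lie below, and grey points the other 30. Ppp1r3b lies far below the line in the first-listed and above it in the second-listed libraries.

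Ldha, lactate dehydrogenase A, had less covered length in LSD1-LKO in both pairs of libraries. Its promoters, with 13 TSSs, were covered over 3881 bp and 5249 bp in control against 2173 bp and 3246 bp in LSD1-LKO. Khk, the ketohexokinase that starts fructose breakdown, was covered over 2276 bp and 2428 bp in control against 1527 bp and 2202 bp in LSD1-LKO. Pfkfb1, the bifunctional enzyme that sets fructose-2,6-bisphosphate, went from 1993 bp to 1399 bp and from 3846 bp to 2645 bp, although its libraries overlapped across pairs. The largest loss in the first-listed libraries, at Ppp1r3b, a glycogen-targeting subunit of protein phosphatase 1, was from 2341 bp to 549 bp. It was not seen in the second-listed pair, where 1 wide LSD1-LKO peak took the value from 2619 bp to 2922 bp. Gpi1 likewise went from 2243 bp to 1376 bp in the first-listed and from 2639 bp to 3209 bp in the second-listed libraries. Of these 5 largest losses, 3 had the same direction in both pairs.

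Among the 5 largest gains in the first-listed libraries, 4 had the same direction in both pairs. Akt2, the kinase that carries most of the insulin signal in liver, went from 3599 bp to 4103 bp and from 3349 bp to 5788 bp, with LSD1-LKO peaks 13882 to 15671 bp after the 5′ end, at internal TSSs, where the nearest control peak began at 16116 bp. Got2 went from 1030 bp to 1586 bp and from 1691 bp to 2122 bp. Gys2 is given above. Tpi1, triose-phosphate isomerase, went from 1967 bp to 2404 bp and from 2884 bp to 3253 bp. Gapdh, with the largest gain in the first-listed pair, went from 3443 bp to 4334 bp there and from 4094 bp to 3972 bp in the second-listed pair. Pgam1, phosphoglycerate mutase, whose libraries did not overlap, went from 1153 bp to 1229 bp and from 1072 bp to 1798 bp, with an LSD1-LKO peak upstream of the start from -474 to -98 bp. Slc2a2, the glucose transporter of the hepatocyte, overlapped, with 2367 bp and 3758 bp in control against 2625 bp and 3228 bp in LSD1-LKO.

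Ranked within each library, the strongest H3K4me2 promoter peak of a gene gave a measure of strength rather than of length, although the edges of a peak still decide whether it enters the promoter. Its median percentile over the set was 86.1 and 81.4 in the control libraries and 84.3 and 79.6 in the LSD1-LKO libraries, and for all genes with coverage it was 83.8 and 80.9, and 84.0 and 82.7. Of the 35 genes ranked in all 4 libraries, 7 (20%) had both LSD1-LKO libraries above both control libraries, beside 17.9% of all genes so ranked. Another 9 (25.7%) had both below, beside 16.4%. The median difference was -2.53 percentile points for the set and 0.493 for all genes.

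**Figure D4:**
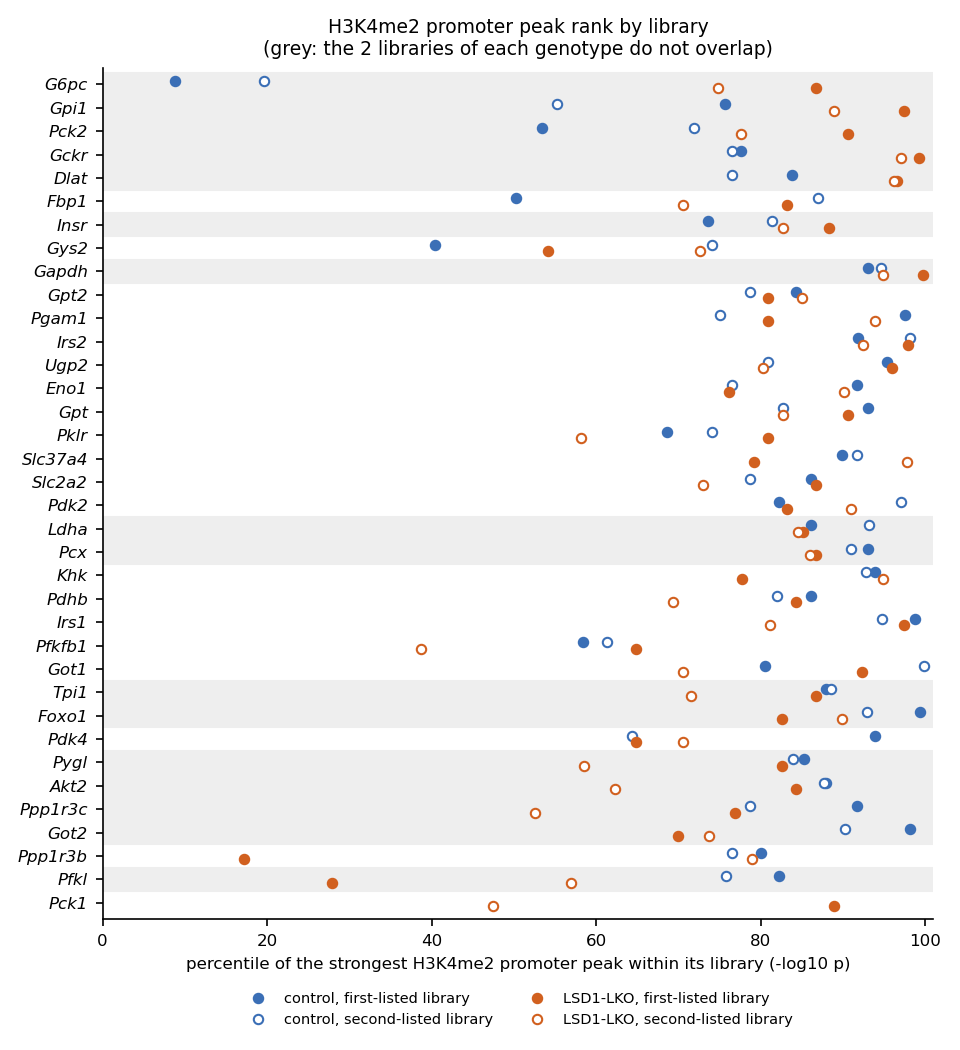
Percentile of the strongest H3K4me2 promoter peak of each gene within its library, by -log10 p, for the 4 libraries, ordered by the difference of the genotype means. Grey rows are the 16 genes whose LSD1-LKO libraries both lie above (7 genes) or both below (9 genes) the control libraries, and Pck1, at the bottom, has no control peak.

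Higher ranks in LSD1-LKO were found for Gpi1, Pck2, Gckr, Dlat, Insr and Gapdh besides G6pc. Gpi1 stood at percentiles 75.7 and 55.2 in control against 97.5 and 89.0 in LSD1-LKO. Pck2, the mitochondrial phosphoenolpyruvate carboxykinase, stood at 53.4 and 71.9 in control against 90.6 and 77.7 in LSD1-LKO. Gckr stood at 77.7 and 76.5, then 99.2 and 97.1, but this too turned on the window. The strong first-listed LSD1-LKO peak, which lies at the TSS of Fndc4, ran from -2471 to -867 bp and entered the promoter, while its control counterpart ended at -1058 bp, and with 500 bp on either side the Gckr percentiles were 77.7 and 76.5 against 14.9 and 97.1. Dlat, the E2 subunit of pyruvate dehydrogenase, stood at 83.8 and 76.5 in control against 96.6 and 96.2 in LSD1-LKO. Insr (73.7 and 81.4, then 88.3 and 82.7) and Gapdh (93.1 and 94.6, then 99.7 and 94.8) had the smallest differences of the 7, 7.97 and 3.42 points between the genotype means, and both overlapped under a q threshold of 0.05.

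Lower ranks in LSD1-LKO were found for Pfkl, Got2, Ppp1r3c, Akt2, Pygl, Foxo1, Tpi1, Pcx and Ldha. Of these, Tpi1 overlapped with 2 kb on either side (88.0 and 88.5 against 86.7 and 92.9) and when ranked by fold enrichment, Ldha overlapped when ranked by q, and Pfkl had no LSD1-LKO promoter peak under a q threshold of 0.05. Pfkl had the largest difference, from percentiles 82.2 and 75.8 in control to 27.9 and 56.9 in LSD1-LKO, with fold enrichment of 5.22 and 5.26 in control against 2.38 and 3.72 in LSD1-LKO. Its covered length differed in opposite directions in the 2 pairs, with 972 bp and 2044 bp in control against 1104 bp and 1713 bp in LSD1-LKO. Got2 stood at 98.1 and 90.2 in control against 70.0 and 73.7 in LSD1-LKO, while its covered length was the greater in LSD1-LKO in both pairs. Ppp1r3c, another glycogen-targeting subunit, stood at 91.7 and 78.7, then 76.9 and 52.5. Akt2 stood at 88.0 and 87.7, then 84.3 and 62.3, again with longer coverage. Pygl, the liver glycogen phosphorylase, stood at 85.3 and 84.0, then 82.7 and 58.5. Pklr overlapped in rank, with 68.6 and 74.1 in control against 80.8 and 58.2 in LSD1-LKO. It also overlapped in covered length, with 1062 bp and 992 bp in control against 984 bp and 1083 bp in LSD1-LKO. With 2 kb on either side its covered length no longer overlapped. It was then 1449 bp and 1948 bp in control against 1984 bp and 2263 bp in LSD1-LKO.

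Genes with and without an LSD1 promoter peak were set side by side. Of the 16 that carried LSD1 at a promoter, 3 ranked higher (G6pc, Gckr and Gpi1) and 3 lower (Pfkl, Got2 and Pcx) in LSD1-LKO, and of the 19 ranked genes without one, 4 ranked higher and 6 lower. Over all genes, 859 ranked higher and 863 lower of 5149 with LSD1 at a promoter, and 1358 and 1174 of 7257 without. In covered length of the first-listed libraries, 12 of those 16 had more and 4 less in LSD1-LKO (median difference 143.5 bp), while the other 20 had 10 and 10 (median -1 bp). Over all genes, 2115 had more and 3181 less of 5316 with LSD1, and 3388 and 5051 of 8461 without. In the second-listed libraries the medians were -45.5 bp and 113 bp, the opposite order. For all genes the first-listed medians were -114.5 bp and -114 bp and the second-listed ones 19 bp and 29 bp.

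Across whole loci, most H3K4me2 peaks were shared between genotypes. The 36 loci held 222 control peaks, of which 54 (24.3%) overlapped no LSD1-LKO peak, beside 31.9% of all control peaks. They held 254 LSD1-LKO peaks, of which 78 (30.7%) overlapped no control peak, beside 35.9% of all LSD1-LKO peaks. These overlaps too were read at first-listed positions. The peaks of 1 genotype ranked low, with median percentiles of 19.98 (control) and 26.5 (LSD1-LKO), while shared peaks had 65.6 and 62.2, and 7 and 12 of them lay in promoters. An LSD1 peak overlapped 1 of the 54 control-only and 7 of the 78 LSD1-LKO-only peaks. No all-gene share stands beside these promoter and LSD1 counts, and no difference between genotypes is read from them.

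Insr, the longest gene of the set at 157557 bp, had the most peaks listed in 1 genotype only. These were 4 of its 17 control peaks and 12 of its 25 LSD1-LKO peaks, the latter all intronic but for 1 in a coding exon. Its locus was covered over 13736 bp and 19121 bp in control against 17007 bp and 28833 bp in LSD1-LKO, higher in LSD1-LKO within either pair of libraries. Pcx had 7 and 8, Slc2a2 6 and 6, Foxo1 7 and 4, and Pck1 4 and 5. Whether gene length bears on these counts was not tested. They were read at first-listed positions, and some of the peaks met a second-listed peak of the other genotype. The Pck1 control peak from -7019 to -6671 bp lay within a second-listed LSD1-LKO peak from -7929 to -6603 bp. The Insr LSD1-LKO peak from 38143 to 38509 bp met a second-listed control peak from 38353 to 39490 bp. Foxo1 was covered over 11042 bp and 13888 bp in control against 8014 bp and 12536 bp in LSD1-LKO, lower within either pair. By group, insulin signalling genes had 16 control-only and 27 LSD1-LKO-only peaks of 49 and 58, of which Insr gave 4 and 12. Gluconeogenic genes had 14 and 21 of 55 and 60. Over the set, the median difference in covered length of the locus was 334.5 bp in the first-listed libraries, beside -144 bp for all genes, and it too changed sign with the threshold and the libraries.

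Other genes of the same pathways, 87 symbols with 88 annotated genes since Aldoa has a pair of annotated genes, gave 30 of 88 (34.1%) with an LSD1 promoter peak and 54 (61.4%) with one in the locus. A control H3K4me2 promoter peak was listed for 80 and an LSD1-LKO peak for 78, with 3 genes in control only, 1 in LSD1-LKO only and 7 in neither. Their LSD1 promoter peaks ranked highest at Inppl1, a phosphatase that opposes PI3 kinase signalling (percentile 97.2, 4.03-fold and 7.27-fold), Ppp1r3g, a glycogen-targeting subunit (96.9), Grb14, an inhibitor of the insulin receptor (93.8), Pik3cb, a catalytic subunit of PI3 kinase (87.3), and Srebf1, a transcription factor of lipid synthesis that insulin induces (87.15). Of the 77 ranked in all 4 H3K4me2 libraries, 17 ranked higher and 17 lower in LSD1-LKO. In covered length of the first-listed libraries 32 of 81 had more and 48 less in LSD1-LKO, with a median of -115 bp.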

How the data were processed

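LSD1 was measured by ChIP-seq in wild-type liver and H3K4me2 in control and LSD1-LKO liver, with 2 ChIP and 2 control libraries a group, 12 samples in all. The control libraries are labelled as input, with no antibody, whereas the study's methods speak of IgG. The authors mapped reads to mm10 with Bowtie 2, called narrow peaks in each library with MACS2 and paired the peaks of the 2 libraries with bedtools 2.25.0. The deposited fold enrichment is a ratio to the control library, and the deposited −log10 p-value and −log10 q-value of each peak were also written by MACS in the authors' run; a last column gives the bases that paired peaks share. The p-value threshold named in the methods was 0.01, while listed p-values reach 0.05. The lists also hold 12 columns of per-library integer scores and summit offsets that were not used, so sequence windows were centred on the peaks and not on summits as designed.

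Overlaps of at least 1 bp, covered lengths and percentiles within a library were computed in Python 3.11.15 with numpy 2.4.6 and pandas 2.3.3, with figures from matplotlib 3.10.9, and the overlap functions were tested on simulated intervals. Covered length counts the bases of promoter windows, merged per gene, that lie under peaks of 1 library. Genes come from GENCODE M21 and sequences from the RefSeq GRCm38.p6 genome, and all 21 chromosomes of the lists end within its lengths. A sequence stretch leaves out exons of GENCODE and RefSeq. The sequence at Gys2 is not reported here. No test was run, since each group has 2 libraries, and most counts stand beside those of all protein-coding genes, which are no control group. Only the library names speak to whether replicates came from separate animals, so their spread may be technical.

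The members and lists were chosen with earlier results of these data known. Genes are named by rule: those with an LSD1 promoter peak, with a H3K4me2 promoter peak in 1 genotype, with the 5 largest changes of covered length each way, with percentiles that do not overlap (values for the 5 largest each way), with the most LSD1 peaks or peaks of 1 genotype, and Pck1, G6pc, Pklr, Pfkl and Gapdh. Values of Slc2a2 and Pgam1 were added after they were seen. The alternatives covered promoter width, flank, TSS choice, MACS threshold, library, overlap and score.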

Additional observations from a re-analysis of the deposited data

How the results depend on the processing

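Of 115 alternative settings of results 111 were run, and the other 4 were fits with the replicate number as a block. Of the values obtained, 76 were called the same, 26 moved further and 9 changed sign. The same meant a median not of opposite sign and within the spread between libraries, or a count within 1.5 times the main one. For the share of overlapping peaks it meant a value within a binomial interval that takes peaks as independent. The promoter median of 0 bp in the second-listed libraries was among those called the same. No paired analysis was possible because the deposited lists carry no replicate numbers. The counts of LSD1 peaks depended on the MACS threshold: at p at or below 1e-05, or q at or below 0.05, in both libraries, 1 gene kept an LSD1 promoter peak and 4 an LSD1 peak in the locus. The share of LSD1 peaks on control H3K4me2 was 50% of 4 peaks at the p threshold and 75% of 4 peaks at the q threshold. It was 80.85% of 47 peaks at second-listed positions. When an overlap of 50% of the narrower interval was asked for, it was 47.92% of 48 peaks.

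The median difference in promoter covered length changed sign under the p threshold of 1e-05 (-226 bp), the q threshold (-207.5 bp), a promoter of 500 bp on either side (-23 bp) and 1 TSS per gene (-33 bp). It was 615 bp between the first-listed control and second-listed LSD1-LKO library and -601 bp between the second-listed control and first-listed LSD1-LKO library, and its SD over the library combinations was 499.3 bp. This SD takes in the main value and the crossed pairs, which set libraries of unlike peak width side by side. A median within it is therefore no sign of a stable result. For the locus the medians were -359.5 bp and -200.5 bp under these p and q thresholds, -169.5 bp at p at or below 0.01, and 2566 bp and -1222 bp for the crossed libraries. Genes with less covered length numbered 22 under the q threshold and 4 and 29 for the crossed libraries, and genes with more numbered 14 under the q threshold and 5 for the second crossing.

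Genes whose covered length was below control in both libraries numbered 4 under either threshold and with the 500 bp promoter, and those above numbered 2 with the latter. Genes ranked higher in LSD1-LKO numbered 3 of 27 under the p and 4 of 32 under the q threshold. Those ranked lower numbered 9 of 27 and 9 of 32. No all-gene share stands beside these counts, and no direction is read from them. Peaks in control only numbered 27 of 87 under the p threshold and 45 of 139 under the q threshold. They numbered 29 of 152 at second-listed positions and 87 of 377 with 50 kb around the gene. Peaks in LSD1-LKO only numbered, in the same order, 16 of 77, 30 of 124, 47 of 174 and 138 of 435. Under both thresholds the share was thus larger in control, the reverse of the main setting. Depth is unknown, so a peak missing from a list is not an absent mark.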
